A study of Homo sapiens with 19 samples.

Results

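OXTR, HTR2A, LGR5, KIT, NPR3, DIO2 and EPHA4 are 7 human genes, 6 of them for cell-surface receptors and 1 (DIO2) for an enzyme that activates a hormone, among 23367 genes of the deposited count table. They were chosen by name for large changes after doxorubicin in one or both MYCN states. Their levels and changes after the drug are therefore given as a description, with no test. RNA was sequenced from SHEP TET21N, an established neuroblastoma line and a single model, in which doxycycline turns down a transgene for MYCN, a MYC-family transcription factor. MYCN-high cells were grown without doxycycline and MYCN-low cells with it, so that the MYCN level and doxycycline itself cannot be told apart. Both states were sampled before treatment, at the end of 72 h with doxorubicin (0.1 µg/ml), a topoisomerase poison that damages DNA, and at days 3, 8 and 14 following washout of the drug. The 10 groups hold 2 libraries each, called replicates B and C, except MYCN-low cells at day 14, which have replicate B alone. The submitters describe the duplicates as biological. The labels give no shared origin for libraries of the same letter, so ratios given by letter below only describe the spread.

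The receptors sense signals of very different kinds. OXTR, the oxytocin receptor, and HTR2A, the serotonin 2A receptor, are G protein-coupled receptors that signal through Gq and phospholipase C. LGR5 binds R-spondins and strengthens Wnt signalling, and it marks stem cells in the gut and hair follicle. KIT is a receptor tyrosine kinase for stem cell factor (the product of KITLG) with known roles in mast cells, melanocytes, germ cells and blood stem cells. NPR3 takes up and clears natriuretic peptides, EPHA4 is an Eph receptor that binds ephrins on neighbouring cells, and the DIO2 enzyme (type II deiodinase) converts the prohormone thyroxine to active T3 inside the cell.

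Promoter sequence was read for the members that the RefSeq table (GRCh38.p14) holds, which gave 12 windows of 250 bases before a start site for 6 members; LGR5 is not in that table. Both strands were searched for the E-box CACGTG (the motif bound by MYC proteins), the cAMP response element TGACGTCA, the AP-1 site TGANTCA and the TATA box TATAAA. Of the 12 windows 1 held a match, that of the upstream DIO2 start. It is shown because it held 2 motifs, and the KIT window is shown beside it as a member with 1 listed start and no match. Capitals mark the matches, and both lines read 5′ to 3′ on the gene's strand.
DIO2, chr14:80212179-80212428 (minus strand): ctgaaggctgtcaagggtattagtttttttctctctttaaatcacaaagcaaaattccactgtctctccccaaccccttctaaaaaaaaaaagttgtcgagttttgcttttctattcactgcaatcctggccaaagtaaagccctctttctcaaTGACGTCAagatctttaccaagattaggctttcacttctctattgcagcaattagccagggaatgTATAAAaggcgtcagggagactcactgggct
KIT, chr4:54657707-54657956 (plus strand): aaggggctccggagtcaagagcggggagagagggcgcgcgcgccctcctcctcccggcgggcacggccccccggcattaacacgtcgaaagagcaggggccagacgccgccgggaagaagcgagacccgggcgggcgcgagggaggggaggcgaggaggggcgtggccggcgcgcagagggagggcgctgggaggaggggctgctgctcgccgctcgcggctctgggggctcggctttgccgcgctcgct
In the DIO2 window the cAMP response element begins 96 bases before the start and the TATA box 31 bases before it. Among all 35116 windows of this length, 1.65% held TGACGTCA, 10.7% TATAAA, 6.34% CACGTG and 6.57% TGANTCA. The windows also differed in composition, with 40.8% G and C in this DIO2 window and 76.4% in the KIT window, against a median of 58.0% over all windows. A match is a string of letters and was not measured as a binding site here.

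Levels are CPM (counts scaled to the same library total) scaled by the TMM method of edgeR, and changes are log2 fold changes from an edgeR quasi-likelihood fit over 14793 genes. All 7 members passed its filter on low counts, some only through the groups where they are high. MYCN itself ran from 594 to 1416 CPM in MYCN-high and from 13.5 to 30.7 CPM in MYCN-low libraries. Of the 8 mesenchymal neuroblastoma markers listed (VIM, FN1 and others) all were present. Their summed level was 1700 to 2703 CPM in MYCN-high libraries. In MYCN-low cells it was 4451 to 5784 CPM untreated and at 72 h. HTR2A was at 1.04 to 2.36 CPM in those cells untreated and already at 17.7 to 23.5 CPM at 72 h. At days 3, 8 and 14 the sum was 6138 to 14310 CPM there, and HTR2A was at 17.0 to 53.7 CPM. FN1 was the largest part of the sum at those days, with a mean of 1140 CPM untreated and 7317 CPM at day 8. Over the same span VIM went from 2483 to 1463 CPM and TWIST1 from 129 to 33.0 CPM. CD44 went from 798 to 898 CPM and YAP1 from 254 to 272 CPM. WWTR1 went from 74.6 to 207.5 CPM, PRRX1 from 145 to 278 CPM and SNAI2 from 31.9 to 53.7 CPM. Of 10 adrenergic markers PHOX2A was at 0 in every library and TH and DBH reached at most 2 counts, while HAND2 ran from 46.0 to 325 CPM. Among 6 blood and mast cell markers the summed level was 0.160 to 0.220 CPM in untreated MYCN-low cells, 1.38 to 3.94 CPM in treated MYCN-low cells and 0.356 to 1.27 CPM in MYCN-high cells. In the same libraries KIT, which mast cells also use, ran up to 378 CPM, and CPA3, the marker with the highest CPM, up to 3.12. The proliferation markers MKI67, TOP2A and CCNB1 summed to 2657 to 3016 CPM in untreated MYCN-high cells, 93.4 to 334 at 72 h, 917 to 920 at day 3, 1791 to 1983 at day 8 and 2281 to 2607 at day 14. In MYCN-low cells they summed to 2238 to 2546 CPM untreated, 15.5 to 20.8 at 72 h, 42.2 to 47.3 at day 3, 231 to 358 at day 8 and 303 at day 14. Their part in the results below was not tested, and in such bulk RNA fewer cells of a type and less RNA per cell cannot be told apart.

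Before the drug, the libraries of OXTR, HTR2A and EPHA4 lay lower in MYCN-high than in MYCN-low cells, with no overlap. Those of DIO2 and LGR5 lay higher, also with no overlap, while those of KIT and NPR3 overlapped. How many of all genes separate in this way was not counted. With 2 libraries a group, a lack of overlap here and below only describes these genes. The untreated libraries are the baseline of the changes for which the genes were chosen, so these differences between the states are also a description, with no test. OXTR was at 41.9 and 16.7 CPM in MYCN-high and at 141 and 179 CPM in MYCN-low cells. Its log2 difference was -2.45 ± 0.50 (SE), between -3.3 and -1.95 with any 1 library left out. HTR2A was at 0.195 and 0 CPM (4 and 0 counts) in MYCN-high cells and at 2.36 and 1.04 CPM in MYCN-low cells. Its difference of -4.04 ± 1.03 rests on those 4 counts in MYCN-high cells. DIO2 was at 468 and 1302 CPM in MYCN-high cells and at 65.9 and 441 CPM in MYCN-low cells, a difference of 1.80 ± 0.66. It was 1.01 without MYCN-low untreated replicate B, 0.87 without MYCN-high untreated replicate C and 3.74 without MYCN-low untreated replicate C.

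The differences of LGR5, KIT, NPR3 and EPHA4 are given in the same way, as a description with no test. LGR5 was at 65.0 and 56.5 CPM in MYCN-high and 37.9 and 36.4 CPM in MYCN-low cells (0.71 ± 0.51). KIT was at 189 and 202 CPM in MYCN-high and 131 and 200 CPM in MYCN-low cells (0.24 ± 0.25, and -0.04 without MYCN-low untreated replicate B). NPR3 was at 257 and 42.8 CPM in MYCN-high and 163 and 51.3 CPM in MYCN-low cells (0.49 ± 0.88). Its replicates lay further apart than the states did, and the sign turned without MYCN-high untreated replicate B (-1.36) or MYCN-low untreated replicate C (-0.13). EPHA4 was at 0.780 and 0.0925 CPM in MYCN-high and 0.934 and 1.08 CPM in MYCN-low cells (-1.22 ± 0.75). It was -3.40 without MYCN-high untreated replicate B and -0.39 without replicate C. Per kilobase of exon (GENCODE 29) the mean untreated level ranked DIO2 first in MYCN-high cells, at 118 CPM per kb, followed by KIT at 35.1, NPR3 at 15.2, LGR5 at 11.6 and OXTR at 6.49. In MYCN-low cells the mean levels per kb of OXTR (35.5), DIO2 (33.8) and KIT (29.8) were close together, above NPR3 at 10.9 and LGR5 at 7.07. EPHA4 (0.0578 and 0.133) and HTR2A (0.0173 and 0.302) were under 1 CPM per kb in both states.

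After the drug, OXTR, LGR5, KIT, NPR3 and DIO2 were at low levels in MYCN-high cells from 72 h to day 8 and at day 14 had means 1.47-fold (KIT) to 2.60-fold (NPR3) below the untreated ones, as the plot of levels by state and time shows. In MYCN-low cells none of these 5 was as far below its untreated level at 72 h, and each had its lowest mean at day 14. HTR2A was high in treated MYCN-low cells at all 4 times and low in MYCN-high cells throughout. EPHA4 was high at 72 h in both states. These are the changes for which the genes were chosen.

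**Figure D1:**
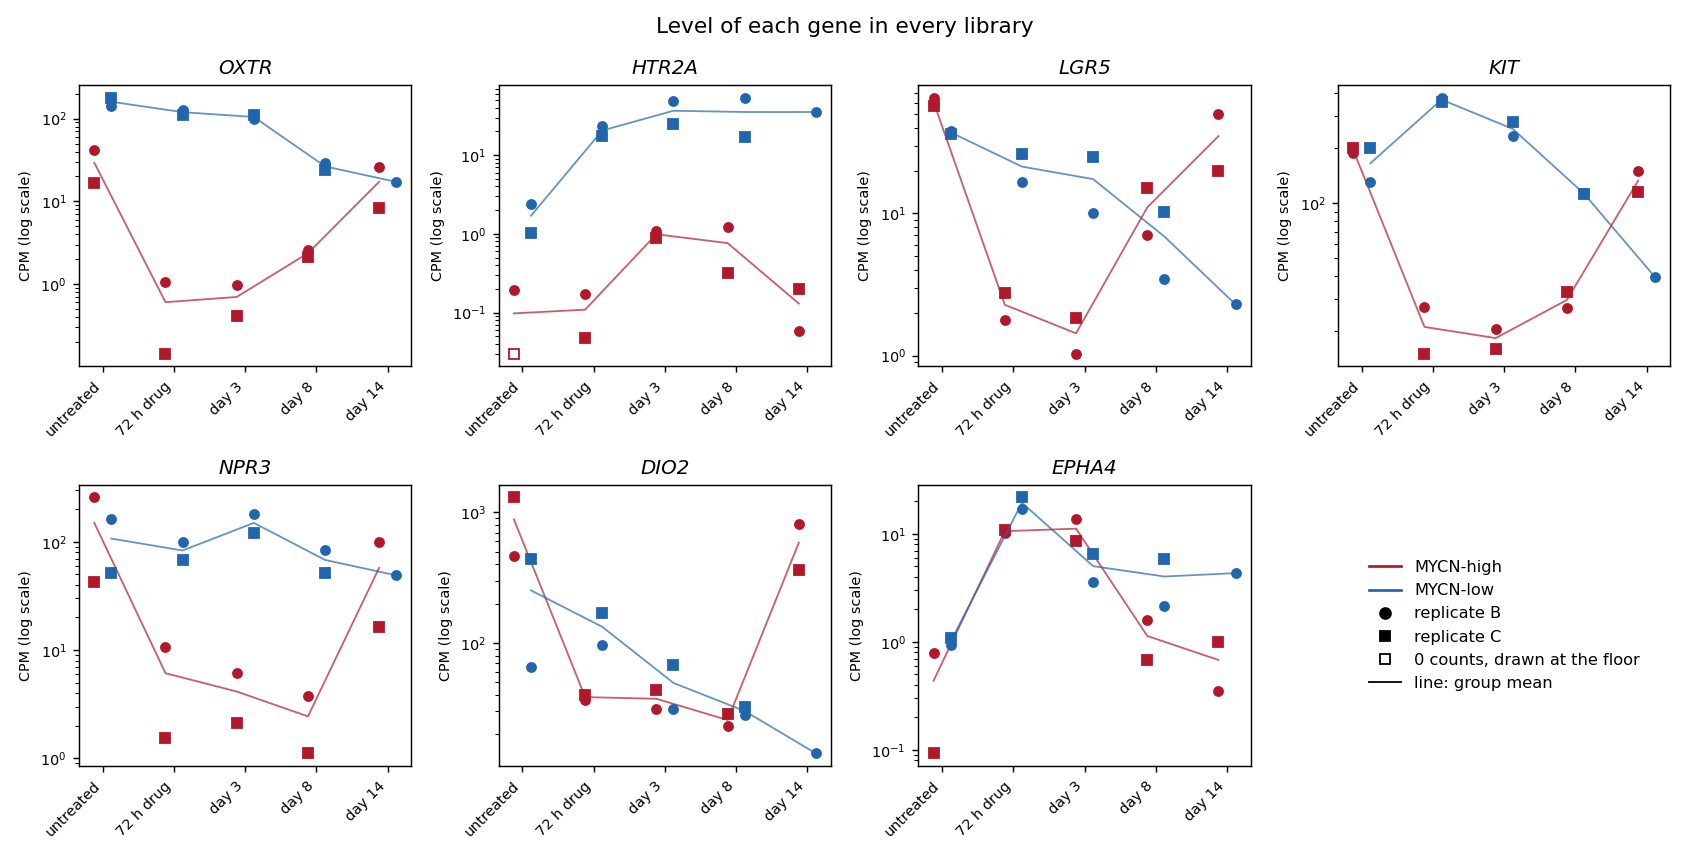
Level of each of the 7 genes in every library, in CPM on a log axis, against time (untreated, 72 h of drug, and days 3, 8 and 14 after washout), for MYCN-high (red) and MYCN-low (blue) cells. Circles are replicate B, squares replicate C, lines join group means, and the open square is the 1 library with 0 counts of HTR2A, drawn at the floor of the axis; the red lines of OXTR, LGR5, KIT, NPR3 and DIO2 dip and climb again by day 14, to means below the untreated ones, while their blue lines end at their lowest mean, in 1 library.

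OXTR was at 1.06 and 0.144 CPM in MYCN-high cells at 72 h, and at 0.978 and 0.415 CPM at day 3. It was at 2.60 and 2.11 CPM at day 8 and at 26.2 and 8.36 CPM at day 14. Every library from 72 h to day 8 lay below both untreated ones, and those of day 14 overlapped them. The log2 changes against untreated cells were -5.54, -5.36, -3.63 and -0.77 in order of time, so that the mean at 72 h was 48.7-fold lower, by 39.5-fold in replicate B and 116-fold in replicate C, which held 3 counts. In MYCN-low cells OXTR stayed at 129 and 111 CPM at 72 h and at 98.8 and 111 CPM at day 3. It was then at 28.98 and 24.0 CPM at day 8 and at 17.2 CPM in the library of day 14. Here the log2 changes were -0.42, -0.61, -2.60 and -3.22, and the libraries at each time lay below the untreated ones. At 72 h the mean in MYCN-high cells was 199-fold below that in MYCN-low cells, by 122-fold in replicate B and by 770-fold in replicate C with its 3 counts, while at day 14 the means were 17.3 and 17.2 CPM. From highest to lowest mean, MYCN-low untreated cells came first, then MYCN-low cells at 72 h and day 3, which overlapped each other. MYCN-high untreated cells, MYCN-low day 8, MYCN-high day 14 and MYCN-low day 14 followed, each overlapping the next, with MYCN-high cells at day 8 and then at day 3 and 72 h below them.

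HTR2A was 20.8-fold above its untreated mean at day 14 in MYCN-low cells. Its levels there were 23.5 and 17.7 CPM at 72 h, 48.2 and 25.1 CPM at day 3, 53.7 and 17.0 CPM at day 8 and 35.3 CPM at day 14. All were above the untreated 2.36 and 1.04 CPM, with log2 changes of 3.63, 4.46, 4.41 and 4.41, or 12.1-fold at 72 h and 21.6-fold at day 3 by the means. Day 3, day 8 and day 14 overlapped one another, and both 72 h libraries lay within the wide range of day 8. In MYCN-high cells HTR2A was at 0.170 and 0.0478 CPM at 72 h, 1.09 and 0.890 CPM at day 3, 1.21 and 0.317 CPM at day 8 and 0.0585 and 0.201 CPM at day 14. The counts behind these were at most 26 in a library, and the untreated pair had 4 and 0. The log2 changes of 0.22, 3.30, 2.96 and 0.48 rest on those 4 counts. Without MYCN-high untreated replicate B, which holds all 4, the change at day 3 was fitted as 7.36 against a lone library at 0 and is no measure of size. The mean was lower in MYCN-high than in MYCN-low cells at every time, from 17.4-fold untreated to 272-fold at day 14. The latter ratio rests on 1 and 4 counts in MYCN-high cells and on the lone MYCN-low library, and between the B libraries it was 604-fold.

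LGR5 in MYCN-high cells was at 1.78 and 2.78 CPM at 72 h, 1.03 and 1.84 CPM at day 3, 7.02 and 15.0 CPM at day 8 and 50.04 and 19.8 CPM at day 14. Every one of these lay below the untreated 65.0 and 56.5 CPM, and the log2 changes were -4.74, -5.41, -2.46 and -0.80. Day 8 lay above day 3 by 7.68-fold in the means, with no overlap. In MYCN-low cells LGR5 was at 16.6 and 26.1 CPM at 72 h, 10.1 and 24.7 CPM at day 3, 3.49 and 10.3 CPM at day 8 and 2.29 CPM at day 14. The log2 changes were -0.80, -1.09, -2.41 and -4.01, and day 3 overlapped both 72 h and day 8, while all treated libraries lay below the untreated ones. Thus the lowest mean of MYCN-high cells came at day 3 (1.44 CPM) and that of MYCN-low cells at day 14 (2.29 CPM). The day 8 levels of the states overlapped, and at day 14 MYCN-high cells were 15.3-fold higher. In the order of means, untreated MYCN-high cells stood above all other groups and the next 6, from untreated MYCN-low cells down to MYCN-low day 8, each overlapped the next. The lowest 3 groups, MYCN-low day 14 and MYCN-high 72 h and day 3, also overlapped in turn.

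KIT was at 27.2 and 15.1 CPM at 72 h in MYCN-high cells, 20.6 and 16.1 CPM at day 3, 26.7 and 32.6 CPM at day 8 and 151 and 115 CPM at day 14. All of these were below the untreated 189 and 202 CPM, with log2 changes of -3.21, -3.41, -2.72 and -0.56. In MYCN-low cells KIT was instead higher at first, at 378 and 360 CPM at 72 h and 233 and 277 CPM at day 3 against 131 and 200 CPM untreated. It was then lower, at 114 and 112 CPM at day 8 and 39.4 CPM at day 14. The log2 changes were 1.16, 0.62, -0.55 and -2.07, and at each time the libraries did not overlap the untreated ones. With libraries scaled by their ERCC spike-ins the day 8 change was 0.35, the opposite sign. KIT was the one member whose libraries lay below the untreated ones in one state and above them in the other, at 72 h and at day 3. The means of MYCN-low and MYCN-high cells differed 17.5-fold at 72 h, 13.9-fold at day 3 and 3.81-fold at day 8. Of the 10 groups, MYCN-low cells at 72 h had the highest mean (369 CPM) and at day 3 the next (255 CPM), each apart from the one below. The untreated groups of the states overlapped, as did MYCN-high cells at day 8, 72 h and day 3 at the bottom of the order.

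NPR3, like DIO2, had its lowest mean at day 8 in MYCN-high cells. It was at 10.7 and 1.53 CPM at 72 h, 6.14 and 2.14 CPM at day 3, 3.77 and 1.11 CPM at day 8 and 98.9 and 16.5 CPM at day 14, against 257 and 42.8 CPM untreated. The log2 changes were -4.60, -5.17, -5.92 and -1.38, and the libraries up to day 8 lay below the untreated ones. Replicate B exceeded replicate C in each of the 5 MYCN-high groups, by up to 6.98-fold at 72 h. The day 14 libraries overlapped the untreated ones, with a mean 2.60-fold lower. Between day 8 and day 14 the mean became 23.7-fold higher, by 26.2-fold in replicate B and 14.9-fold in replicate C. In MYCN-low cells NPR3 was at 99.0 and 67.4 CPM at 72 h, 179 and 120 CPM at day 3, 84.6 and 51.6 CPM at day 8 and 49.0 CPM at day 14, against 163 and 51.3 CPM untreated. The log2 changes of -0.36, 0.48, -0.65 and -1.13 were small beside those of MYCN-high cells, and the libraries up to day 8 overlapped the untreated ones. The 7 groups with the highest means each overlapped the next, and MYCN-high cells at 72 h, day 3 and day 8 formed a lower set that also overlapped in turn.

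DIO2 had the highest level per kb in untreated MYCN-high cells. It was at 37.0 and 40.2 CPM there at 72 h, 31.6 and 43.4 CPM at day 3, 23.2 and 28.4 CPM at day 8 and 810 and 365 CPM at day 14, against 468 and 1302 CPM untreated. The log2 changes were -4.52, -4.56, -5.10 and -0.59. At day 14 the replicates went different ways, with B 1.73-fold higher than its untreated namesake and C 3.57-fold lower. In MYCN-low cells DIO2 was at 96.1 and 170 CPM at 72 h, 31.0 and 68.0 CPM at day 3, 28.1 and 32.4 CPM at day 8 and 14.3 CPM at day 14. The untreated pair of that state, 65.9 and 441 CPM, was the widest of its groups, 6.69-fold apart. The changes of -0.93, -2.36, -3.07 and -4.15 depend on it, since without untreated replicate C the 72 h change was 1.00, that of day 8 -1.10 and that of day 14 -2.17. At days 3 and 8 the states overlapped, at means of 37.5 and 49.5 CPM and of 25.8 and 30.2 CPM. At day 14 they were furthest apart, 587 CPM in MYCN-high against 14.3 CPM in MYCN-low cells. The top 4 groups of the order each overlapped the next, and so did the 5 from MYCN-low day 3 to MYCN-high day 8, with MYCN-low day 14 lowest.

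EPHA4 was at 10.2 and 11.0 CPM at 72 h in MYCN-high cells, 13.7 and 8.66 CPM at day 3, 1.58 and 0.686 CPM at day 8 and 0.351 and 1.01 CPM at day 14, against 0.780 and 0.0925 CPM untreated. The log2 changes were 4.60, 4.68, 1.40 and 0.68, with no overlap at 72 h and day 3 and overlap at day 8 and day 14. In MYCN-low cells it was at 17.1 and 21.7 CPM at 72 h, 3.58 and 6.48 CPM at day 3, 2.16 and 5.89 CPM at day 8 and 4.33 CPM at day 14, against 0.934 and 1.08 CPM. Here the changes were 4.26, 2.30, 2.00 and 2.09, and every treated library lay above the untreated ones. The level at day 3 was thus 3.86-fold below that at 72 h in MYCN-low cells, while in MYCN-high cells these times overlapped and the drop, 9.86-fold, came between day 3 and day 8. The highest group mean was that of MYCN-low cells at 72 h (19.4 CPM), followed by MYCN-high cells at day 3 and 72 h, which overlapped. Untreated cells of both states overlapped MYCN-high cells at day 14 at the bottom.

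**Figure D2:**
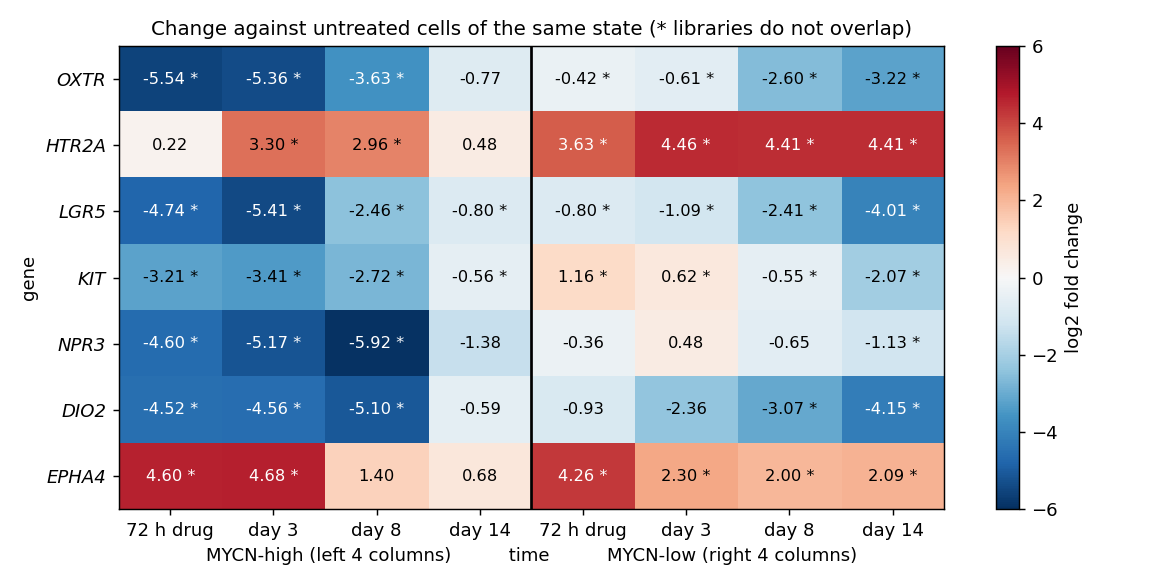
Log2 fold change of each gene (rows) at each time after the drug (columns) against untreated cells of the same state, MYCN-high on the left and MYCN-low on the right, with blue for lower and red for higher and an asterisk where no library of one group falls within the range of the other. The 5 blue rows on the left fade at day 14, with values of -0.56 to -1.38, while on the right OXTR, LGR5, KIT and DIO2 darken towards day 14. The share of all genes that would carry an asterisk was not counted.

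The replicates differed in the same direction in many groups. NPR3 was higher in replicate B in 9 of 9 groups with both letters, HTR2A in 8 of 9 and OXTR in 7 of 9, whereas DIO2 was higher in replicate C in 8 of 9. KIT had no such lean, with B higher in 5 of 9, and LGR5 and EPHA4 were higher in C in 6 of 9 each. The share of all genes with such a lean was not counted, so these counts only describe the members.

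**Figure D3:**
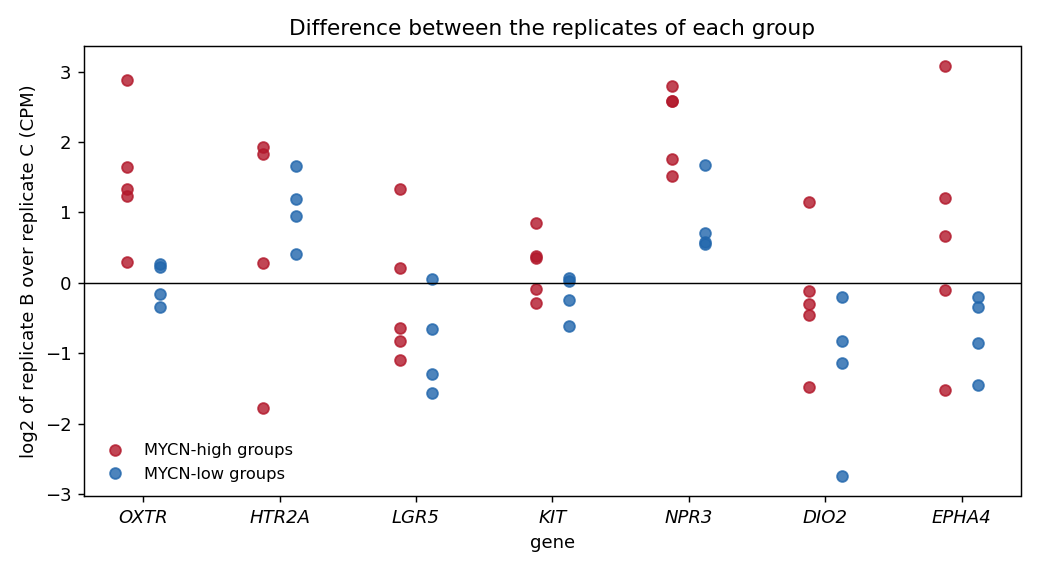
Log2 ratio of replicate B over replicate C for each gene (x axis) in each group that has both, with MYCN-high groups in red and MYCN-low groups in blue; 0 means equal levels. NPR3 points all lie above 0 and 8 of 9 DIO2 points below it, and HTR2A in untreated MYCN-high cells is left out because replicate C had 0 counts.

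Over all 19 libraries, the members were compared by the root mean square difference of their centred log2 CPM, in which a small value means parallel levels. The closest pairs were LGR5 with KIT (1.16), LGR5 with DIO2 (1.26), OXTR with NPR3 (1.33) and KIT with NPR3 (1.34), and the farthest was HTR2A with DIO2 (4.38). The libraries share their groups, so this describes likeness and tests nothing. The same measure over all tested genes gave the 3 nearest genes of each member, most of which are named here. For KIT these were LFNG (0.57), TPM1 (0.62) and TUBB2B (0.64), against a spread of KIT itself of 1.53. TPM1, a tropomyosin of actin filaments, had group means of 1471 CPM in untreated MYCN-high cells, 245 at 72 h and 1011 at day 14, and of 3164, 3967 and 1387 CPM at those times in MYCN-low cells. For HTR2A (own spread 3.12) they were SCG2 (0.93), FN1 (0.97) and ITGA11 (1.12). SCG2, a secretory granule protein, went from 172 CPM untreated to 2728 CPM at day 8 in MYCN-low cells by group means, and FN1, fibronectin, from 1140 to 7317 CPM. EPHA4 (1.90) was nearest to WDR63 (0.75), GRIN2C (0.77) and ACER2 (0.78). WDR63 had means of 0.833 and 34.2 CPM in MYCN-high cells untreated and at 72 h, and 1.78 and 32.7 CPM in MYCN-low cells. OXTR (2.93) was nearest to TNFRSF19 (0.98), MYOCD (1.12) and WNT5B (1.24), and MYOCD (0.92) and TNFRSF19 (0.95) were also among the 3 genes nearest to NPR3 (2.38). LGR5 (1.82) was nearest to FAM101B (0.92), AP1M2 (0.94) and CSRP2 (0.95), and KRT80 (1.05) and CAPSL (1.13) were among the 3 nearest to DIO2 (1.89).

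To set the members among the genes they work with, 140 ligands, related receptors, enzymes and downstream partners were listed by function in 7 lists, and 100 of them were tested. In untreated cells 7 of the 100 were higher and 23 lower in MYCN-high than in MYCN-low cells, beside 16.5% and 18.6% of all tested genes, with a median of -0.48 against -0.04 over all genes. In MYCN-high cells 20 were higher and 7 lower at 72 h, beside 18.3% and 17.9% of all tested genes, and 19 were higher and 9 lower at day 3, beside 15.1% and 15.7%. At day 8 these were 9 and 2, beside 4.49% and 4.09%. At day 14 edgeR called 0 of the 100, as it did 0 of all tested genes (0% higher and 0% lower). At an unadjusted p under 0.05 there were 11 of the 100 and 1245 of all genes, and the DESeq2 Wald test called 1 of the 100. In MYCN-low cells 13 were higher and 5 lower at 72 h (10.2% and 12.1% of all genes), 13 and 5 at day 3 (10.5% and 12.7%), 14 and 6 at day 8 (10.2% and 14.6%) and 9 and 4 at day 14 (7.63% and 10.7%). The response at 72 h differed between the states for 6 genes in each direction, beside 6.63% and 4.06% of all genes. Among the 100 genes, the higher outnumbered the lower at each drug time with calls in both states, while over all genes the lower were the more frequent in MYCN-low cells.

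These counts depended on single libraries. The 30 calls in untreated cells became 19 without MYCN-low untreated replicate B and 19 without MYCN-high untreated replicate C. Without the latter the 27 calls at 72 h in MYCN-high cells became 13 and the 28 at day 3 became 12. The day 3 count was 16 without replicate B of that day and 17 without replicate C, and the 11 calls at day 8 became 5 without either untreated library and 6 without either library of that day. At day 14, 2 were called without replicate B of that day. In MYCN-low cells the 18 calls at 72 h became 8 without untreated replicate B, 8 without the 72 h replicate B and 6 without the 72 h replicate C. Leaving out untreated replicate C raised the counts from 18 to 29 at day 3, from 20 to 32 at day 8 and from 13 to 25 at day 14. Day 3 gave 11 calls without its replicate B, and day 8 gave 12 without untreated replicate B. The 12 differences between the states at 72 h became 24 without MYCN-low untreated replicate C. They became 7, 6 and 5 without MYCN-high untreated replicate B, MYCN-low untreated replicate B and MYCN-high untreated replicate C, and 4, 5 and 5 without MYCN-low replicate B, MYCN-low replicate C and MYCN-high replicate C of 72 h.

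**Figure D4:**
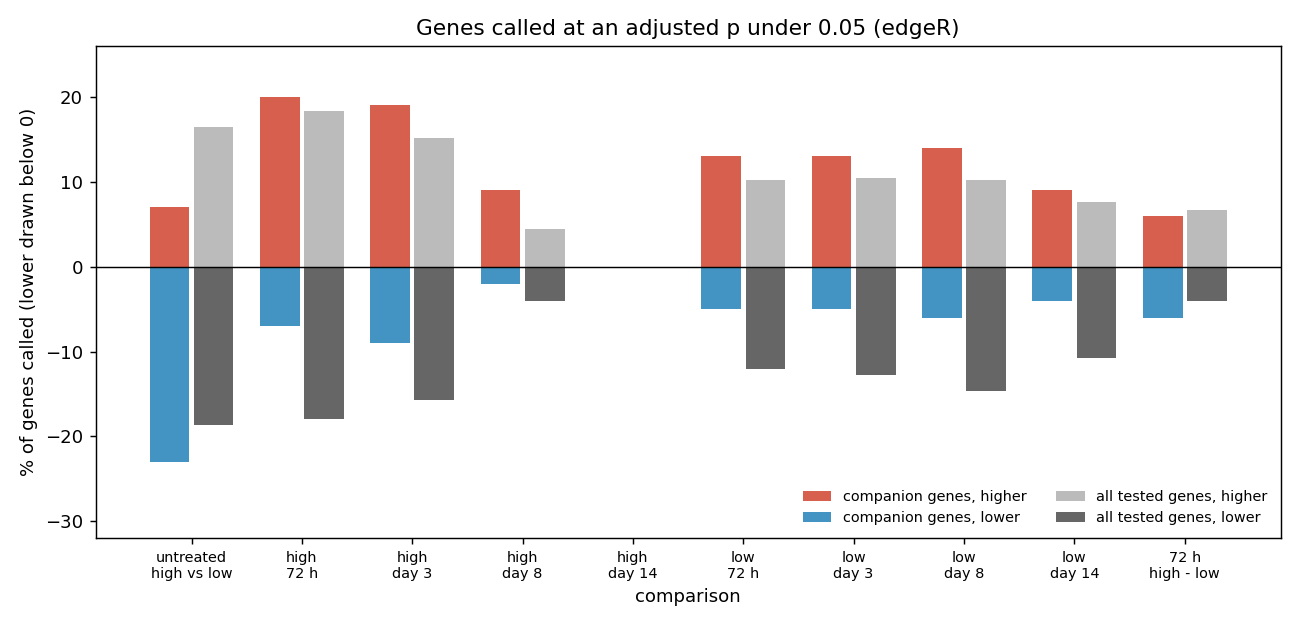
Percentage of the 100 companion genes called higher (red, above 0) or lower (blue, below 0) in each of the 10 comparisons by edgeR, beside the percentage of all 14793 tested genes (light and dark grey). In untreated cells 23 companion genes were lower and 7 higher, and the MYCN-high day 14 columns are at 0.

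Among the partners of LGR5, the R-spondin gene RSPO3 was 0.439 and 0.231 CPM in untreated MYCN-high cells and 12.3 and 7.12 CPM at day 3. At day 8 it was at 14.8 and 19.2 CPM, and it rose by 4.85 ± 0.73 at day 3 and 5.65 ± 0.73 at day 8 (adjusted p = 0.000209 and 0.000402, edgeR). In MYCN-low cells it rose from 2.20 and 2.04 CPM to 9.68 and 12.3 CPM at day 3, to 18.1 and 13.1 CPM at day 8 and to 38.4 CPM at day 14 (2.38 ± 0.58, 2.88 ± 0.58 and 4.18 ± 0.65). These 5 calls held in every leave-out, though the lone MYCN-low day 14 library could not be left out. RSPO3 is a ligand that LGR5 shares with LGR4, and RSPO4 was at 0 in all libraries, with RSPO1 and RSPO2 under 1 CPM in each. LGR4, the relative of LGR5 that is present in many tissues, was between 32.4 and 103 CPM in every library and passed in no drug contrast. DKK2, a secreted modulator of Wnt receptors, rose in MYCN-low cells from 2.31 and 1.56 CPM to 23.3 and 41.3 CPM at 72 h (4.07 ± 0.77, adjusted p = 0.00135, edgeR) and to 13.9 and 22.4 CPM at day 3 (3.24 ± 0.75). DKK3, of the same family, was lower in untreated MYCN-high cells, at 16.6 and 8.28 CPM against 286 and 140 CPM (-4.10 ± 0.42, adjusted p = 1.43e-05, edgeR). Of the 29 tested genes of this list, 5 were higher and 4 lower at 72 h in MYCN-high cells, near the 18.3% and 17.9% of all tested genes. In MYCN-low cells 4 and 1 were called at 72 h, beside 10.2% and 12.1%. The median of the list was within 0.2 of 0 in all drug contrasts.

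KITLG, the ligand of KIT, passed in none of the 10 contrasts. It lay between 67.4 and 129 CPM in MYCN-high libraries and between 102 and 210 CPM in MYCN-low ones. CSF1, the ligand of the related receptor CSF1R, was lower in untreated MYCN-high cells, at 17.6 and 17.2 CPM against 110 and 52.3 CPM (-2.22 ± 0.39, adjusted p = 0.000519, edgeR). After 72 h it rose in both states, to 83.8 and 70.8 CPM in MYCN-high cells (2.15 ± 0.38) and to 398 and 298 CPM in MYCN-low cells (2.10 ± 0.38). In MYCN-low cells it remained called at day 14, at 560.5 CPM (2.79 ± 0.43, adjusted p = 0.000619, edgeR). PDGFRA, a receptor kinase of the KIT class, was at 7.75 and 8.28 CPM in untreated MYCN-high cells and 108 and 116 CPM at day 8 (3.80 ± 0.95, adjusted p = 0.0235, edgeR). That call was lost in each of its 4 leave-outs, with adjusted p (edgeR) of 0.182 and 0.131 without MYCN-high untreated replicates B and C and 0.0737 and 0.0722 without day 8 replicates B and C. PDGFD rose at day 3 in MYCN-high cells (1.90 ± 0.40). Of the 12 tested genes of the list 4 were higher and 1 lower at 72 h in MYCN-high cells, beside 18.3% and 17.9% of all tested genes. CSF1 alone was called at 72 h in MYCN-low cells, beside 10.2% higher and 12.1% lower.

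Of the natriuretic peptides, NPPA and NPPC did not pass the filter on low counts, and NPPB was at most 1.70 CPM in any library. NPR1, a guanylyl cyclase receptor, was at most 1.58 CPM and passed in no contrast. NPR2, the cyclase receptor for C-type natriuretic peptide, rose in MYCN-low cells at day 8, from 0.330 and 0.359 CPM to 1.72 and 2.45 CPM (2.58 ± 0.61, adjusted p = 0.00663, edgeR). PDE5A, which breaks down the cGMP these cyclases make, fell in MYCN-high cells up to day 8. It went from 134 and 91.6 CPM to 34.4 and 26.4 CPM at 72 h, to 29.1 and 27.8 CPM at day 3 and to 20.4 and 14.1 CPM at day 8 (-1.89 ± 0.24, -1.99 ± 0.24 and -2.71 ± 0.25). At day 14 it was at 120 and 108 CPM (0.02, not called). In MYCN-low cells it lay between 90.7 and 174 CPM and passed at no time. Its 72 h response differed between the states by -1.49 ± 0.33 (adjusted p = 0.0129, edgeR), a call lost without MYCN-high untreated replicate B (0.0616), MYCN-high 72 h replicate C (0.068) or MYCN-low 72 h replicate C (0.0514). With ERCC scaling the PDE5A change at 72 h in MYCN-high cells was 0.52 and not called. FURIN, a protease that processes natriuretic prohormones among others, was lower in untreated MYCN-high cells (-1.82 ± 0.27) and rose there at 72 h from 44.2 and 43.0 CPM to 84.7 and 117 CPM (1.21 ± 0.26).

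In the serotonin list 14 of 21 genes, among them the transporter gene SLC6A4 and both tryptophan hydroxylases, did not pass the filter. Of the 7 tested, edgeR called 0 in MYCN-high cells and 0 in the untreated comparison. There 1 or 0 passed at an unadjusted p under 0.05 in each contrast, and the DESeq2 Wald test called 1 at 72 h. Of all tested genes 16.5% were higher and 18.6% lower in the untreated comparison. In MYCN-high cells these shares were 18.3% and 17.9% at 72 h and 15.1% and 15.7% at day 3. They were 4.49% and 4.09% at day 8 and 0% at day 14. HTR2C and HTR2B, the closest relatives of HTR2A, were at most 0.543 and 0.302 CPM. HTR7 lay between 7.20 and 37.9 CPM and passed in no contrast. In MYCN-low cells 1 of the 7 was called higher at each time. The shares of all tested genes were 10.2% higher and 12.1% lower at 72 h and 10.5% and 12.7% at day 3. At day 8 they were 10.2% and 14.6%, and at day 14 7.63% and 10.7%. HTR1F, which lies under the level set for naming and is named after its values were seen, was the only gene called. It passed the filter on low counts only through treated MYCN-low libraries, where it is high. Its calls are therefore given as a description. It had 0 counts in all 4 untreated libraries and was at 0.633 and 0.435 CPM at 72 h, 2.94 and 0.506 CPM at day 3, 1.87 and 0.827 CPM at day 8 and 2.90 CPM at day 14 in MYCN-low cells. Against a floor of 3 counts over the untreated group these means were at least 7.70-fold, 24.9-fold, 19.4-fold and 41.9-fold higher. The call at 72 h was lost in each of its 4 leave-outs. The other 3 held in every leave-out, though the lone day 14 library could not be left out.

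The genes of oxytocin (OXT) and vasopressin (AVP) had 0 counts in all libraries. The vasopressin receptor gene AVPR1A was found in 1 library, at 0.0453 CPM. Of 9 tested genes in the oxytocin list, RGS2 and LNPEP were called higher at 72 h in MYCN-high cells and none lower, beside 18.3% and 17.9% of all tested genes. RGS2, an inhibitor of Gq signalling, was at 6.48 and 3.70 CPM untreated and 11.3 and 31.0 CPM at 72 h (2.05 ± 0.62, adjusted p = 0.0174, edgeR). That call was lost without MYCN-high untreated replicate C (0.139) or 72 h replicate C (0.221). PLCB1, a phospholipase that Gq proteins activate, was at 43.4 and 34.0 CPM untreated and 84.2 and 78.8 CPM at day 8 (1.07 ± 0.23, adjusted p = 0.00899, edgeR). It was lost without MYCN-high untreated replicate C (0.0955) or day 8 replicate B (0.0643).

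The other deiodinase genes were nearly silent, with DIO3 found in 1 library at 0.0345 CPM and DIO1 at most 0.536 CPM. USP20, a deubiquitinase known to act on the DIO2 protein, rose in MYCN-high cells at 72 h from 3.66 and 3.56 CPM to 16.8 and 19.5 CPM (2.33 ± 0.31, adjusted p = 3.99e-05, edgeR) and was called at day 3 (1.92 ± 0.31). In MYCN-low cells it was at 8.35 and 4.11 CPM untreated and 7.16 and 7.63 CPM at 72 h. The response differed between the states by 2.07 ± 0.43 (adjusted p = 0.0106, edgeR), and this held in all 8 leave-outs. KLF9, a T3-responsive transcription factor gene, rose in MYCN-low cells at all 4 times, from 15.1 and 16.6 CPM to 37.4 and 40.03 CPM at 72 h and 42.7 CPM at day 14 (1.29 ± 0.25 and 1.43 ± 0.29). In MYCN-high cells it was not called, at 18.9 and 25.3 CPM untreated and 35.2 and 27.8 CPM at 72 h. SLC16A10 (MCT10), a transporter of thyroid hormone, was higher in untreated MYCN-high than in MYCN-low cells, at 4.39 and 5.14 CPM against 0.385 and 0.918 CPM (2.82 ± 0.46).

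**Figure D5:**
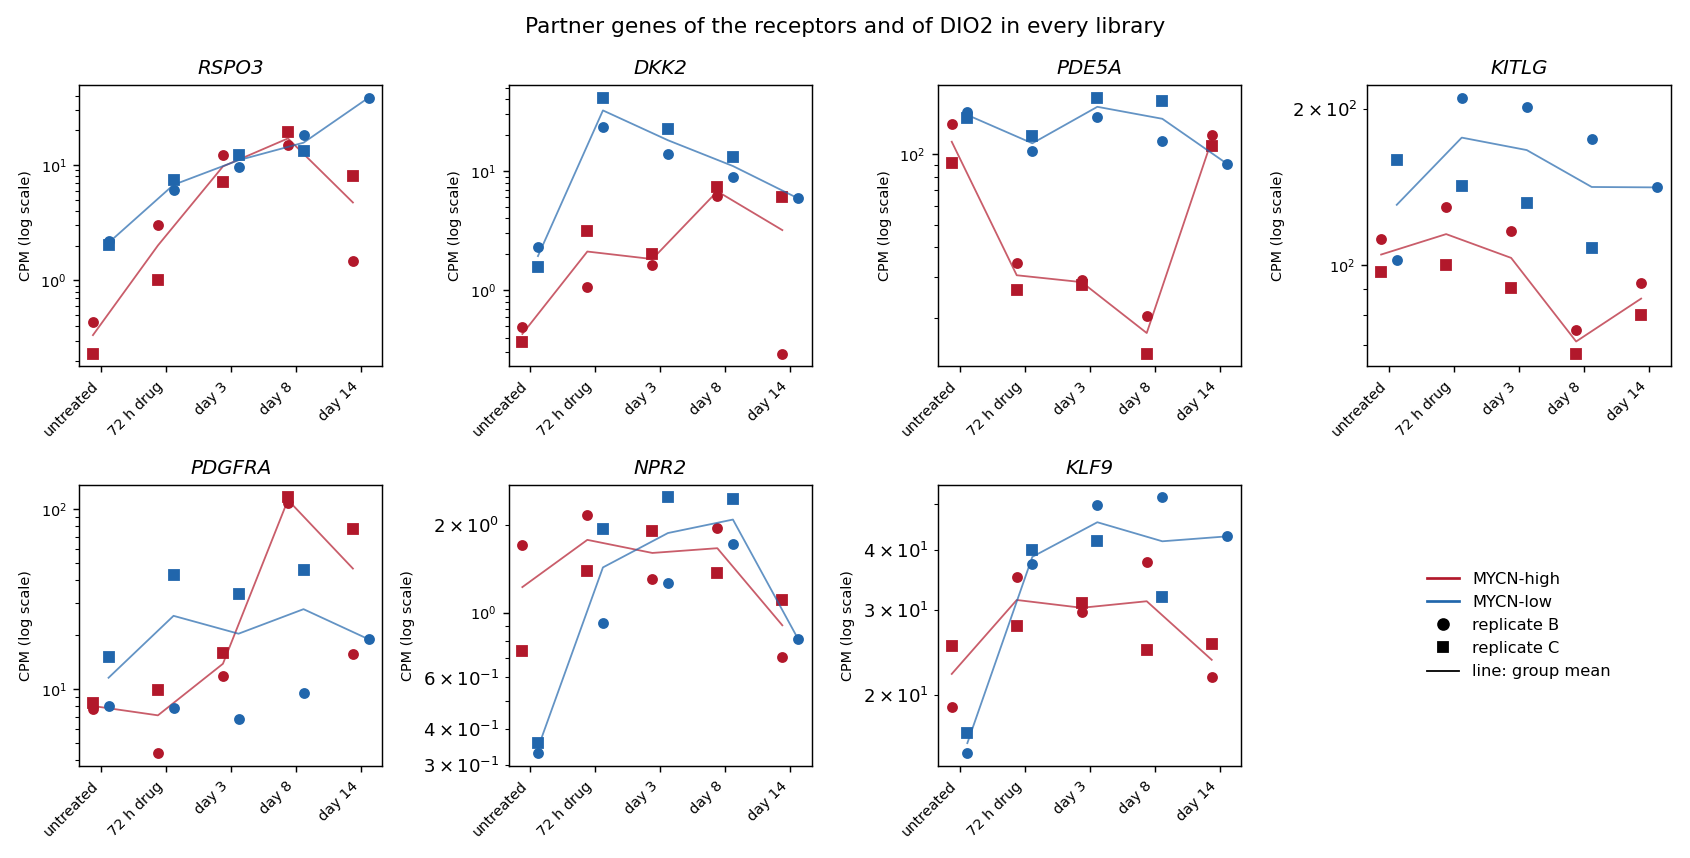
Levels of 7 partner genes in every library, in CPM on log axes, with colours and symbols as in the plot of levels by state and time. RSPO3 climbs up to day 8 in both states and on to 38.4 CPM in the MYCN-low day 14 library. DKK2 is highest in MYCN-low cells at 72 h, and KLF9 has its highest group means in treated MYCN-low cells. PDE5A dips to 14.1 CPM in MYCN-high cells and is back at 108 to 120 CPM at day 14, and KITLG stays between 67.4 and 210 CPM.

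Among ephrins and Eph receptors, EPHA3, a close relative of EPHA4, lay between 232 and 726 CPM and passed in no contrast. EPHA2 was between 34.9 and 234 CPM. Its rise at 72 h in MYCN-high cells (1.34 ± 0.34, adjusted p = 0.00567, edgeR) was lost without MYCN-high untreated replicate C (0.0838) or 72 h replicate C (0.0612). Of the ligands, EFNB1 rose at 72 h in MYCN-high cells from 5.80 and 5.46 CPM to 11.1 and 17.3 CPM (1.33 ± 0.29, adjusted p = 0.00194, edgeR). EFNA5 was higher in untreated MYCN-high cells, at 14.1 and 13.4 CPM against 2.14 and 4.67 CPM (1.99 ± 0.36, adjusted p = 0.000757, edgeR). EFNA1, EFNA3 and EFNA4 passed in none of the contrasts, and EFNA2 was under 0.5 CPM in every library. EFNB2 lay between 29.5 and 95.0 CPM and was called lower at day 3 in MYCN-high cells (-0.75 ± 0.23, adjusted p = 0.0242, edgeR). That call held in 2 of 4 leave-outs. EPHB6, an Eph receptor without kinase activity, was lower in untreated MYCN-high cells, at 0.390 and 0.0463 CPM against 6.54 and 3.19 CPM (-4.45 ± 1.17, adjusted p = 0.00862, edgeR), a call lost without MYCN-high untreated replicate C (0.0867). Of the 18 tested genes in this list 5 were higher and 1 lower at 72 h in MYCN-high cells, beside 18.3% and 17.9% of all tested genes, and 1 and 1 in MYCN-low cells, beside 10.2% and 12.1%.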

How the data were processed

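The deposited table holds raw read counts per gene symbol, whole numbers with a different sum in each of the 19 libraries (16547663 to 27664604). Per the labels' protocols, ERCC spike-ins were added, ribosomal RNA was removed with the RiboGold kit and libraries were made with ScriptSeq, while the molecule label says polyA RNA. The submitters' processing notes name STAR 2.4.0h1, HTSeq and hg19, and the annotation and strand setting are not given in the sources used here. Reads of a gene and of a gene on the other strand therefore cannot be told apart, which in GENCODE 29 concerns OXTR (CAV3, 0 to 1 count per library), LGR5 (TSPAN8, 89 to 562 counts) and antisense RNAs of LGR5, HTR2A, DIO2 and EPHA4.

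The members and the gene lists were chosen with earlier results of these data known. In R 4.3.3 with edgeR 4.0.16, ERCC rows (0.0116% to 0.537% of counts) were left out, filterByExpr kept 14793 of 23367 genes, and counts were scaled by TMM and fitted with 1 coefficient per group (9 residual degrees of freedom, biological coefficient of variation 0.204). The lone MYCN-low day 14 library borrows its spread from the other groups. The differences of the members between the states are given without p-values, because their untreated libraries also served to choose them. Quasi-likelihood tests of the companion genes in 10 contrasts were adjusted by Benjamini-Hochberg with a threshold of 0.05, and ± values are standard errors. Under TMM the median change of all genes lay between -0.05 and 0.03. Named are the members, their ligands and nearest relatives, the 3 genes most like each member, and up to 4 called genes per list with a mean of at least 1 CPM, by size of change; some of these were left out for length and some are not reported here. Likeness used log2 CPM with a prior count of 2.

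Alternatives were DESeq2 1.42.0 size factors, its Wald test, no filter, ERCC scaling, the replicate letter as a block, and leaving out each library. On counts simulated for MYCN-high 72 h (14154 genes) the fit recovered 44% of 2-fold and 82% of 4-fold changes, and 4 of its 130 calls were false. For the untreated comparison (14176 genes) it found 42% and 80%, and 7 of 129 calls were false. MYCN-low 72 h (14165 genes) gave 42% and 81%, and there 8 of 131 calls were false. Each simulation changed only 100 genes by each size. In the data 2708 genes were called higher and 2651 lower at MYCN-high 72 h. Figures were drawn with matplotlib 3.10.9.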

Additional observations from a re-analysis of the deposited data

Results flagged for a closer look

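For KIT, every library of one state moved one way and every library of the other the opposite way: the log2 change was -3.21 in MYCN-high and 1.16 in MYCN-low cells at 72 h, and -3.41 and 0.62 at day 3. This difference between the states was not tested, because KIT was chosen for these changes.

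For 7 named partner genes the 72 h response differed between the states by the edgeR interaction test (MYCN-high minus MYCN-low, log2). The differences were -1.24 for PLCB4, -2.15 for PDGFRB, -1.49 for PDE5A, 2.07 for PDGFD, 1.89 for FURIN, 2.07 for USP20 and 2.42 for EFNB3. Those of FURIN and USP20 held in all 8 leave-outs. That of PDE5A held in 5 of 8, PDGFRB in 4, PDGFD in 3, and PLCB4 and EFNB3 in 2.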

How the results depend on the processing

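With 2 libraries a group, single libraries decided many calls; ranges here are over leaving out each library. The cause of the differences below was not tested. In untreated cells the state difference ranged from -8.12 to -3.07 for HTR2A, 0.87 to 3.74 for DIO2, -3.4 to -0.39 for EPHA4, -0.04 to 0.57 for KIT (negative without MYCN-low untreated replicate B) and -1.36 to 1.55 for NPR3 (-1.36 without MYCN-high untreated replicate B and -0.13 without MYCN-low untreated replicate C). The -8.12 for HTR2A, without MYCN-high untreated replicate B, was fitted against a lone library at 0 counts and is no measure of size. With no filter on low counts the LGR5 difference was 0.73 and that of EPHA4 -1.19.

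The companion calls ranged from 19 to 37 in untreated cells, from 13 to 22, 12 to 21, 5 to 6 and 0 to 2 at 72 h and days 3, 8 and 14 in MYCN-high cells, from 6 to 23, 11 to 29, 12 to 32 and 12 to 25 at those times in MYCN-low cells, and from 4 to 24 for the difference of the 72 h responses. Of 81 calls of named companion genes, 36 held in every leave-out, which for MYCN-low day 14 removed untreated libraries only. The DESeq2 Wald test called 17 companion genes at MYCN-high day 8 and 1 at day 14. With no filter, 21 and 8 were called at these times, 29, 28, 32 and 23 in MYCN-low cells in order of time, and 24 for the difference of the 72 h responses.

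Scaling by ERCC spike-ins, which hold 0.0116% to 0.537% of counts, called 0 companion genes in all 10 comparisons and gave state differences of -1.59 for OXTR, -2.84 for HTR2A and 1.73 for DIO2. It shifted the median of all genes by 0.62 in untreated cells, by 2.37, 1.62, 1.14 and -1.07 in MYCN-high cells and by 0.52, 0.5, 1 and 0.38 in MYCN-low cells in order of time, and by 1.87 for the difference of the 72 h responses. Under it the sign turned for KIT at MYCN-low day 8 (0.35), PDGFRB at MYCN-high 72 h (0.28) and day 3 (0.21), PDE5A at MYCN-high 72 h (0.52), EFNB2 at MYCN-high day 3 (0.83), and the 72 h difference of PLCB4 (0.81) and PDE5A (0.34). Of the 56 changes of members, 27 others moved by more than the replicate spread; leaving out a library moved 12 of 210.

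Same-lettered samples were not treated as pairs, since the labels give no shared origin and not every correlation was over 0.1: over 36 pairs of groups the correlation of the B minus C deviations ran from -0.21 to 0.32 (median 0.11), with 22 of them over 0.1, so a shared part is not excluded. With the replicate block the OXTR difference was -2.6, and the companion counts stayed within 1.5 times (32, 30, 29, 13, 0, 20, 21, 22, 17 and 12 in the order above).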
